A study of Mus musculus with 8 samples.

Results

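The POU3 and POU4 genes encode transcription factors of the POU family, and all 7 of them (Pou3f1, Pou3f2, Pou3f3 and Pou3f4, and Pou4f1, Pou4f2 and Pou4f3) were followed among the 36317 gene names of a mouse embryonic RNA-seq table. They were chosen by name, and all 7 were present. The table held 8 libraries of total RNA in 4 groups of 2. These were forebrain at embryonic day (E) 15.5 from EED-cKO embryos, forebrain at E15.5 from wild-type (wt) embryos, spinal cord at E13.5 from wt embryos, and forebrain at E13.5 from wt embryos. In the EED-cKO embryos the knockout of Eed depends on Cre under Sox1, a gene of neural progenitors, so cells of other origin in the dissected tissue are not targeted by design. The labels do not say which alleles the wt embryos carried, or whether a library came from 1 embryo or a pool. Values are RPKM, reads scaled by gene length and by the mapped reads of the library, so levels can be set side by side between genes.

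POU factors bind DNA through a POU-specific domain joined by a linker to a homeodomain. The POU3 genes are broadly expressed in the developing central nervous system. Pou3f2 and Pou3f3 act together in the production and migration of upper-layer neurons of the cerebral cortex. Pou3f1 is known from cortical projection neurons and from Schwann cells, where it controls the timing of myelination. Pou3f4 acts in the hypothalamus and in the mesenchyme of the inner ear. The POU4 genes mark sensory systems: Pou4f1 acts in sensory ganglia, dorsal spinal interneurons and the habenula, Pou4f2 in retinal ganglion cells, and Pou4f3 in inner-ear hair cells. EED is needed for the activity of PRC2, the Polycomb complex that methylates histone H3 at silenced developmental genes, in mammals mostly at CpG-rich promoters.

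The gene models differed between the families. In the GENCODE M21 annotation of GRCm38 each POU3 gene had 1 exon, while the POU4 genes had 2 or 3. Pou3f1 lies at chr4:124656807-124660655 on the plus strand and Pou3f2 at chr4:22482780-22488366 on the minus strand. Pou3f3 lies at chr1:42695768-42703176 and Pou3f4 at chrX:110814280-110817207, both on the plus strand. Pou4f1 (chr14:104461676-104467999) and Pou4f2 (chr8:78433010-78436645) are on the minus strand, and Pou4f3 is on chromosome 18. The reads were unstranded, so a transcript from the other strand can alter the value of the gene it overlaps. The direction is unknown, since the counter is not given. Pou3f1 is overlapped by the antisense gene Gm2164, which was at 1.7 and 1.8 RPKM in EED-cKO forebrain and 3.4 and 3.0 RPKM in wt E15.5 forebrain.

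Promoter sequence was looked at because the POU3 genes moved together and because PRC2 favours CpG-rich promoters. RefSeq windows were at hand for 5 of the 7 genes. Shown are the 250 bases before the RefSeq start (GRCm38.p6) of the cortical pair Pou3f3 and Pou3f2 and of the retinal gene Pou4f2, 5′ to 3′ on the strand of the gene, with each CG dinucleotide in capitals. The windows are chr1:42695518-42695767 (plus), chr4:22488367-22488616 (minus) and chr8:78436648-78436897 (minus).

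Pou3f3: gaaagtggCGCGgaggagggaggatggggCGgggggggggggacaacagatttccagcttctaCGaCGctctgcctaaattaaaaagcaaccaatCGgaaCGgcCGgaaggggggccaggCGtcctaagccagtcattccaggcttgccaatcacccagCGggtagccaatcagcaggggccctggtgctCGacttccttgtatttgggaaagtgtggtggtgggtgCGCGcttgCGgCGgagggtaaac
Pou3f2: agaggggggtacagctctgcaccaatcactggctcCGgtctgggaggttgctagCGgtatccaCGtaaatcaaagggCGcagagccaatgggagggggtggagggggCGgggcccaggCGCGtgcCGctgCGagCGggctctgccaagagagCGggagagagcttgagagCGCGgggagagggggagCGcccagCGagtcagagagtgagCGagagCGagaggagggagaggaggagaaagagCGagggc
Pou4f2: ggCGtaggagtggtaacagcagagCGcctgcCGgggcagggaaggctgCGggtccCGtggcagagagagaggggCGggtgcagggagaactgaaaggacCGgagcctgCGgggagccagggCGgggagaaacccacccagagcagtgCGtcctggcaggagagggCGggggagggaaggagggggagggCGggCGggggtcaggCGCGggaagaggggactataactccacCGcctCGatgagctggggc

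All 5 windows held more CG dinucleotides than the median of 6 over 32536 promoter windows of the same length. Pou3f3 held 15, Pou3f2 18, Pou3f4 13 and Pou4f2 17. In that order, these were more than in 72.5%, 78.2%, 68.2% and 76.3% of all windows. The window of Pou4f1 held 47, more than 99.7% of all windows. The CCAAT motif, searched on both strands as CCAAT or ATTGG and unable to share a base with CG, occurred 3 times for Pou3f3, 2 times for Pou3f2 and 3 times for Pou3f4. It was absent from the windows of Pou4f1 and Pou4f2, and 33.8% of all windows held it at least once. CCAAT was chosen after the sequences were seen. The octamer ATGCAAAT, bound by many POU factors and searched on both strands, was in none of the 5 windows and in 1.62% of all windows. These matches describe the letters only.

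The libraries differed in scale by age. RPKM summed to between 761647 and 843297 per library at E15.5 and to between 378294 and 397320 at E13.5, and since the table holds no read counts the depth is unknown. The E15.5 columns had to be matched to gene names in another row order than the deposited one, but each of the 7 POU genes has the same row in both orders. Over a stretch of gene names around them, wt forebrain at E15.5 and E13.5 correlated with r = 0.947, and with r of 0.325 at most when the E15.5 columns were shifted by up to 3 rows. Eed itself was at 10 and 10.6 RPKM in EED-cKO forebrain, against 25.8 and 27.9 RPKM in wt E15.5 forebrain. EED-cKO replicate 2 stood apart by anterior pituitary transcripts, with growth hormone (Gh) at 42.4 RPKM against 0 in the other 7 libraries; the POU calls were the same without it. Spinal cord replicate 1 was above replicate 2 in summed peripheral sensory neuron markers (373 and 266 RPKM). With 2 libraries against 2, an exact permutation test cannot go below p = 0.333. Calls therefore rest on limma, fitted to log2(RPKM + 1) of the 17022 genes that reached 1 RPKM in 2 or more libraries, at a Benjamini-Hochberg adjusted p under 0.05. All 7 POU genes passed this filter. Pou4f3 did so through spinal cord alone, and Pou4f2 through EED-cKO forebrain and spinal cord, the groups where each is high.

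**Figure D1:**
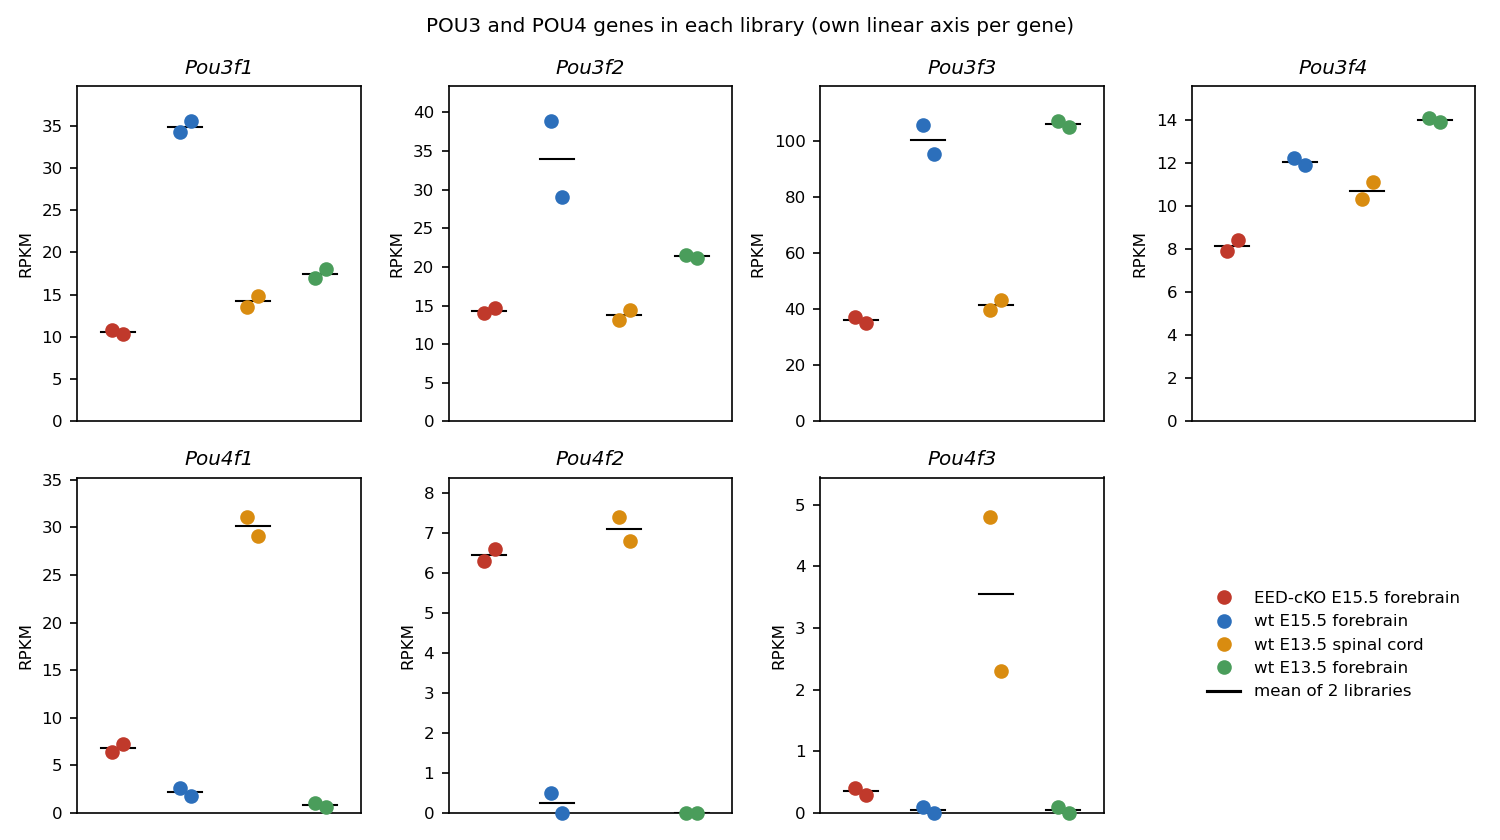
RPKM of each POU3 and POU4 gene (linear axis from 0, separate for each gene), with 1 point per library and a line at the mean of 2 libraries. In EED-cKO forebrain, left of wt E15.5 forebrain, all POU3 genes are lower and Pou4f1 and Pou4f2 are higher. Spinal cord, left of wt E13.5 forebrain, shows the highest Pou4f1, at 31.1 and 29.1 RPKM.

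EED-cKO was compared with wt forebrain at E15.5. All 4 POU3 genes were lower in EED-cKO forebrain, and Pou4f1 and Pou4f2 were higher. Pou4f3 stayed under 0.5 RPKM in both groups. Of the 7 genes 6 were called, where limma called 46.9% of all 17022 genes, 16.7% lower and 30.2% higher. The split of all calls depended on scaling: 5149 genes were higher and 2838 lower as deposited, 3861 and 4642 after median ratio scaling, and 3540 and 4314 after quantile normalization. The 6 POU calls and their directions were the same under both. The POU3 genes had a median log2 change of −1.31, the POU4 genes 1.29 and all tested genes 0.08. In bulk tissue, fewer cells of a type and less RNA per cell cannot be told apart.

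Pou3f3, the most abundant of the 7 genes in every group, was at 37.2 and 35 RPKM in EED-cKO forebrain, against 105.5 and 95.3 RPKM in wt. The groups did not overlap, and the EED-cKO mean was 36.0% of the wt mean (log2 change −1.45 ± 0.074 SE, limma adjusted p = 3.7e-05). Groups without overlap, lower in EED-cKO, made up 27.6% of all tested genes. Pou3f1 was at 10.8 and 10.4 RPKM in EED-cKO forebrain, against 34.2 and 35.5 RPKM in wt. This was the strongest fall among the 7 (log2 −1.63 ± 0.073, limma adjusted p = 2.3e-05), and 0.341% of tested genes had a lower log2 change. Pou3f2 was at 14.0 and 14.7 RPKM in EED-cKO forebrain, against 38.9 and 29.1 RPKM in wt (log2 −1.18 ± 0.13, limma adjusted p = 0.00053). Relative to their mean its wt libraries lay further apart than those of the other POU3 genes, and both were above the EED-cKO libraries.

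Pou3f4 changed least among the POU3 genes. It was at 7.9 and 8.4 RPKM in EED-cKO forebrain, against 12.2 and 11.9 RPKM in wt (log2 −0.51 ± 0.073, limma adjusted p = 0.0015). Its 95% interval (−0.69 to −0.34) did not overlap those of Pou3f1 (−1.80 to −1.45), Pou3f2 (−1.48 to −0.87) or Pou3f3 (−1.62 to −1.27), which overlapped one another. In EED-cKO forebrain Pou3f2 lay above Pou3f1 in both libraries. In wt E15.5 forebrain their values overlapped, so their order was not set. The noncoding gene Pantr1, which neighbours Pou3f3 on the other strand, was at 24.5 and 22.5 RPKM in EED-cKO forebrain, against 98.4 and 118.6 RPKM in wt (log2 −2.16 ± 0.12). It was named after its values were seen.

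Pou4f2 was at 6.3 and 6.6 RPKM in EED-cKO forebrain, against 0.5 and 0.0 RPKM in wt. This was the strongest change among the 7 on the log2 scale (2.60 ± 0.18, limma adjusted p = 9.6e-05), and 99.6% of tested genes had a lower log2 change. Pou4f1 was at 6.4 and 7.2 RPKM in EED-cKO forebrain, against 2.6 and 1.8 RPKM in wt (log2 1.29 ± 0.17, limma adjusted p = 0.0010). In EED-cKO forebrain the values of Pou4f1 and Pou4f2 overlapped, whereas in wt Pou4f1 was above Pou4f2 in both libraries. The groups did not overlap for either gene, as for 42.6% of all tested genes in the upward direction.

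Pou4f3 was at 0.4 and 0.3 RPKM in EED-cKO forebrain, against 0.1 and 0.0 RPKM in wt, values at the rounding step of the table. It was not called (log2 0.36, 95% interval −0.19 to 0.92, limma adjusted p = 0.245). The interval takes in the spread between the spinal cord libraries. With the 4 forebrain libraries alone it was called (adjusted p = 0.037), as it was without spinal cord replicate 1 (0.026) or 2 (0.027) and with a pseudocount of 0.1 RPKM (0.037). The other 6 calls held with each of the 8 libraries left out in turn.

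**Figure D2:**
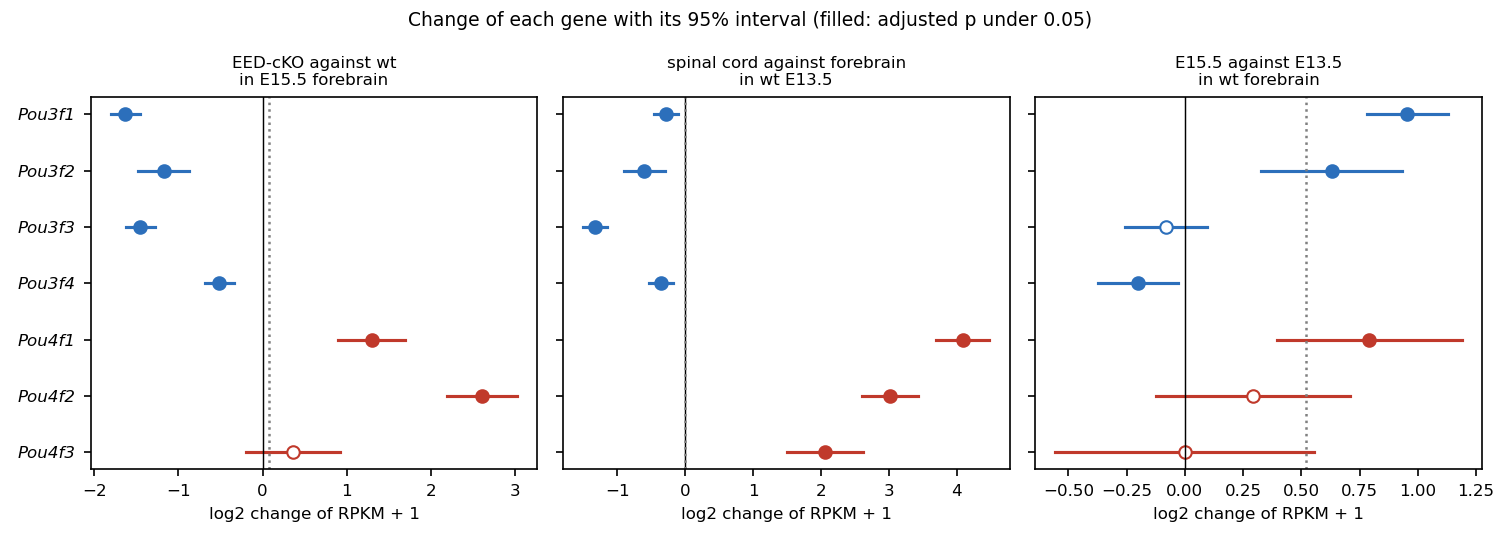
Log2 change of RPKM + 1 (horizontal axis) with its 95% interval from limma, for each gene in the 3 comparisons. Filled points are called, the solid line marks 0 and the dotted line the median of all tested genes. POU3 genes (blue) lie below 0 and POU4 genes (red) above it in the knockout and the spinal cord comparisons, with Pou4f3 not called in the knockout. The fitted spinal cord change of Pou4f2, set against forebrain libraries at 0, is no measure of fold.

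The comparison of wt spinal cord with wt forebrain at E13.5 gave the regional difference. All 4 POU3 genes were lower in spinal cord and all 3 POU4 genes were higher. All 7 were called, where limma called 45.7% of all tested genes, 23.9% lower and 21.8% higher. The median log2 change was −0.48 for the POU3 genes and 0 for all tested genes.

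Pou4f1 was at 31.1 and 29.1 RPKM in spinal cord, against 1.1 and 0.6 RPKM in forebrain (log2 4.08 ± 0.17, limma adjusted p = 6.2e-06). In spinal cord it ranked above every POU3 gene except Pou3f3. Pou4f2 was at 7.4 and 6.8 RPKM in spinal cord and was listed at 0 in both forebrain libraries (limma adjusted p = 2.4e-05). Pou4f3 was at 4.8 and 2.3 RPKM in spinal cord, against 0.1 and 0.0 RPKM in forebrain (log2 2.06 ± 0.24, limma adjusted p = 0.00046). Its spinal cord libraries differed from each other far more than those of Pou4f1 and Pou4f2.

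Pou3f3 was at 39.9 and 43.4 RPKM in spinal cord, against 107.1 and 105.0 RPKM in forebrain (log2 −1.33 ± 0.074, limma adjusted p = 2.1e-05). Pou3f2 was at 13.1 and 14.4 RPKM in spinal cord, against 21.6 and 21.2 RPKM in forebrain (log2 −0.60 ± 0.13, limma adjusted p = 0.0076). Pou3f4 was at 10.3 and 11.1 RPKM in spinal cord, against 14.1 and 13.9 RPKM in forebrain (log2 −0.36 ± 0.073, limma adjusted p = 0.0065). Pou3f1 differed least, with 13.5 and 14.9 RPKM in spinal cord against 17.0 and 18 RPKM in forebrain (log2 −0.28 ± 0.073, limma adjusted p = 0.017). The groups did not overlap for any of the 7 genes, where 39.3% of all genes were without overlap and lower and 37.0% without overlap and higher. Without spinal cord replicate 1 only Pou3f3 of the POU3 genes was called. The adjusted p was then 0.061 for Pou3f2 (log2 −0.54), 0.051 for Pou3f4 (−0.31) and 0.110 for Pou3f1 (−0.22). Pou3f1 was also not called without forebrain replicate 2 (adjusted p = 0.101).

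The knockout and the regional comparison share no library, but their p-values rest on the same spread per gene, estimated from all 8 libraries. The calls of both are therefore not independent. Pou3f1, Pou3f2, Pou3f3 and Pou3f4 were called lower in both, and 8.99% of all tested genes were. Pou4f1 and Pou4f2 were called higher in both, as were 11.2% of all tested genes. The sizes did not run in parallel. Pou3f1 showed the strongest fall of the POU3 genes in EED-cKO forebrain and the smallest difference between the tissues. Pou4f1 had the highest spinal cord level of the POU4 genes, while in EED-cKO forebrain its 95% interval (0.90 to 1.69) lay below that of Pou4f2 (2.19 to 3.02).

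Summed over each family, the POU3 genes were at 69.9 and 68.5 RPKM in EED-cKO forebrain, against 190.8 and 171.8 RPKM in wt E15.5 forebrain. The POU4 sums were 13.1 and 14.1 RPKM in EED-cKO forebrain, against 3.2 and 1.8 RPKM in wt. POU4 genes thus made up 15.8% and 17.1% of the summed level of both families in EED-cKO forebrain and 1.65% and 1.04% in wt. At E13.5 the share was 36.1% and 31.3% in spinal cord and 0.745% and 0.378% in forebrain. Within the POU3 sum Pou3f3 held 53.2% and 51.1% in EED-cKO forebrain and 55.3% and 55.5% in wt E15.5 forebrain. Within the POU4 sum Pou4f1 held 48.9% and 51.1% in EED-cKO forebrain, against 71.8% and 76.2% in spinal cord, a pair of groups that differ in age as well as tissue.

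**Figure D3:**
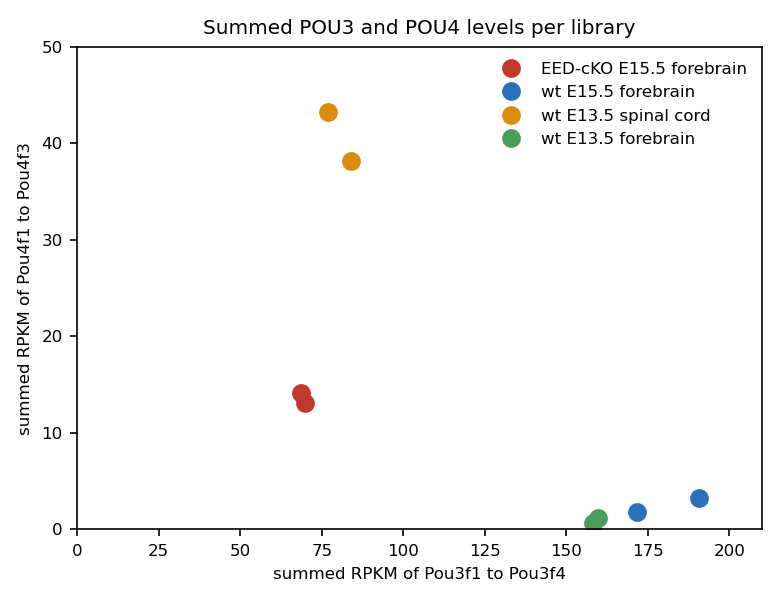
Summed RPKM of the 4 POU3 genes (horizontal axis) against summed RPKM of the 3 POU4 genes (vertical axis), 1 point per library. The EED-cKO libraries lie at 69.9 and 68.5 RPKM of POU3 and 13.1 and 14.1 RPKM of POU4, the spinal cord libraries have the highest POU4 sums, and the wt forebrain libraries of both ages lie at 158.1 RPKM or more of POU3 and 3.2 RPKM or less of POU4.

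The genes whose profile over the 8 libraries was most like each POU gene were listed by Pearson r of log2(RPKM + 1), among 11818 candidates. The 8 libraries fall into 4 groups, so these values describe group patterns. For Pou4f3 they were Pirt (r = 0.989), Tlx2 (0.988) and P2rx3 (0.987). P2rx3 encodes an ATP-gated channel of sensory neurons, and Pirt a membrane protein of peripheral sensory neurons. P2rx3 was at 28.5 and 18.4 RPKM in spinal cord, against 0.6 and 0.5 RPKM in E13.5 forebrain, and was again highest in spinal cord replicate 1. For Pou4f1 they were Slc18a3, the vesicular acetylcholine transporter gene (0.993), Errfi1 (0.993) and Synm (0.993).

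For Pou4f2 the most similar genes were Tfap2a (0.995), Tmem255a (0.993) and Gfra1 (0.993). Tfap2a, a factor of neural crest and early ectoderm, was at 10.5 and 11.7 RPKM in EED-cKO forebrain, against 0.9 and 0.3 RPKM in wt E15.5 forebrain, and at 12.7 and 12.8 RPKM in spinal cord. For Pou3f3 they were Insm1 (0.990), a zinc finger factor of neuronal progenitors, Peo1 (0.985) and Epha3 (0.985). For Pou3f1 they were Bcl7a (0.990), Ccng2 (0.988) and Usp3 (0.986). For Pou3f2 they were Efnb2 (0.982), Mex3b (0.982) and Nol8 (0.980), and for Pou3f4 Rcor2 (0.984), Zkscan3 (0.981) and Prkd3 (0.980). None of the 7 POU genes was among the closest 3 of another. Pou4f3, at 4.8 RPKM at most, could not enter, since candidates had to reach 5 RPKM. Its highest r with another POU gene was 0.917, with Pou4f1.

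The tissue labels were set against marker lists. Limma called 21.8% of all tested genes higher and 23.9% lower in spinal cord than in E13.5 forebrain. Of 8 forebrain markers all 8 were called lower in spinal cord, with Emx1, a factor of dorsal forebrain, at 0.1 and 0.0 RPKM in spinal cord against 59.3 and 56.1 RPKM in forebrain. All 8 spinal cord markers, among them Hoxb8 and Lbx1, were called higher in spinal cord. They summed to 991 and 1171 RPKM there. Markers of peripheral sensory neurons and of their glia moved with the POU4 genes in this comparison. Of 10 sensory neuron markers 8 were tested and 7 were called higher in spinal cord, with P2rx3 as given above, Prph at 202.4 and 158.3 RPKM and Avil at 14.4 and 9.3 RPKM. Their summed level was 373 and 266 RPKM in spinal cord and 7.5 and 6.2 RPKM in E13.5 forebrain. All 6 tested of 8 glial and neural crest markers were also higher, summing to 106 and 73.1 RPKM in spinal cord and 9.7 and 9.5 RPKM in forebrain. Mrgprd was listed at 0 in all 8 libraries. The part of peripheral ganglion RNA in the spinal cord values of the POU4 genes was not tested.

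The knockout calls of markers stand beside 30.2% higher and 16.7% lower over all tested genes. In EED-cKO forebrain the same sensory neuron markers stayed low. They summed to 10.3 and 14.9 RPKM, against 6.4 and 5.5 RPKM in wt E15.5 forebrain, and 2 of 8 tested were called higher (Nefh and Calca), or 1 to 3 with a library left out. The share of these markers called higher was near that of all genes. Scn10a was at 0.0 and 0.1 RPKM in EED-cKO forebrain and 0.1 in both wt libraries, and Avil was at 0.5 and 0.8 RPKM against 0.3 and 0.4 RPKM. The glial and neural crest markers summed to 15.1 and 14.7 RPKM in EED-cKO and 14.9 and 11.4 RPKM in wt, with 2 of 6 called higher and 2 lower, the lower calls being 0 or 1 with any library left out. Among the glial and neural crest markers, too, the share called higher was near that of all genes. Eye pigment and photoreceptor markers summed to 7.9 and 5.9 RPKM in EED-cKO and 6.2 and 5.2 RPKM in wt. Of these 10 only 3 were tested, with 2 called higher (Mitf and Nrl) and 1 lower (Dct). Mitf was at 2.4 and 2.2 RPKM in EED-cKO, against 1.1 and 0.8 RPKM in wt. Nrl was at 1.4 RPKM in both EED-cKO libraries, against 0.7 and 0.4 RPKM in wt. The lower call of Dct was lost whenever 1 of the 6 wt libraries was left out. Of 6 blood markers 1 was called lower (Hbb-bt), a share near that of all genes, and none higher. Hbb-bt was at 5.9 and 8.1 RPKM in EED-cKO, against 395.4 and 547.4 RPKM in wt (log2 −5.88 ± 0.21). What set it apart from the other globin genes was not tested. At an unadjusted p under 0.05 Hbb-bs was higher. Mesenchyme markers moved with the knockout: all 10 were called higher, and they summed to 754 and 922 RPKM in EED-cKO, against 254 and 195 RPKM in wt. All 8 spinal cord markers were called higher as well, summing to 61.6 and 53.7 RPKM in EED-cKO and 0 in wt. Of the forebrain markers 6 were called lower and Nkx2-1 higher, with summed levels of 189 and 154 RPKM in EED-cKO and 796 and 834 RPKM in wt. Whether a changed mix of cells took part in the POU differences was not tested.

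**Figure D4:**
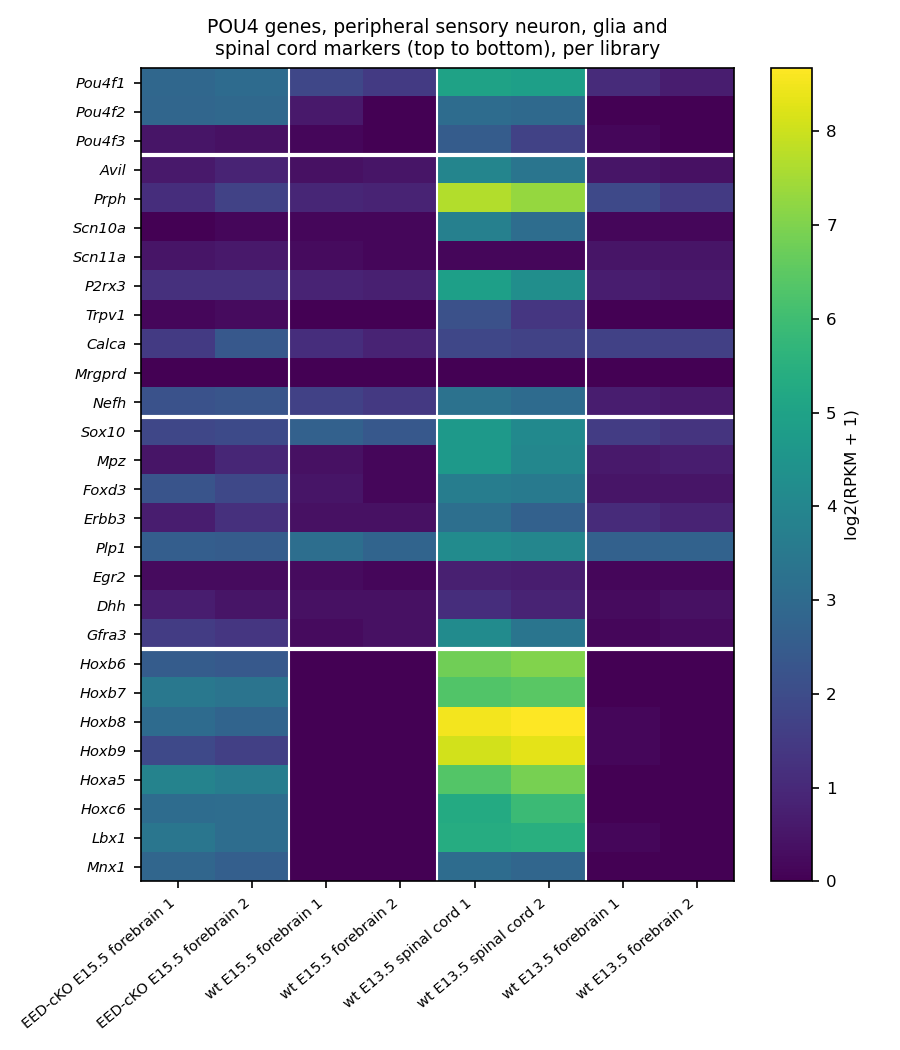
Heat map of log2(RPKM + 1), with 1 column per library and, from top to bottom, the POU4 genes, peripheral sensory neuron markers (all but 1 of the list), 8 peripheral glia and neural crest markers and 8 spinal cord markers. Sensory neuron and glial markers are brightest in the 2 spinal cord columns, except Scn11a, Calca and Mrgprd, while in EED-cKO forebrain Pou4f1, Pou4f2 and the spinal cord markers are above wt and Scn10a and Avil stay under 1 RPKM.

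Genes that act with the POU3 factors in cortex fell more often than they rose in EED-cKO forebrain. Of 21 such genes 20 were tested, and 13 were called lower and 2 higher (limma, adjusted over all genes). The median log2 change of the 20 was −0.54. With any library left out fewer were called lower, and these still outnumbered the genes called higher. Over all tested genes 16.7% were called lower and 30.2% higher, with a median of 0.08. Eomes, a factor of intermediate progenitors, was at 3.1 RPKM in both EED-cKO libraries, against 33.0 and 33.4 RPKM in wt (log2 −3.06 ± 0.092). Mef2c was lower at log2 −2.08 ± 0.11, and Lhx2, a cortical selector factor, at −1.38 ± 0.11. Cux1, an upper-layer factor, did not pass: it was at 59.0 and 57.7 RPKM in EED-cKO and 63.7 and 58.2 RPKM in wt (limma adjusted p = 0.481). The 2 called higher were Nes (log2 0.37 ± 0.10), an intermediate filament gene of progenitors, and Cdk5r2 (1.03 ± 0.14), which encodes an activator of CDK5. Cdk5r1, the gene of the related activator, was lower (−0.46 ± 0.079). The number called higher was 4 without wt E15.5 replicate 1 and 1 without wt E15.5 replicate 2 or either EED-cKO library. In spinal cord 12 of the 20 were called lower and 5 higher relative to forebrain, where 23.9% of all tested genes were lower and 21.8% higher, with Eomes at log2 −5.86 ± 0.092, Lhx2 at −4.73 ± 0.11 and Sox2, a neural progenitor factor, at −1.37 ± 0.086. The 5 higher were Fabp7, Cdk5r1, Cdk5r2, Cux2 and Myt1l. Leaving out a library kept or lowered both spinal cord counts.

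The sensory list holds partners and targets of the POU4 genes. Of its 23 tested genes 12 were called higher and 4 lower in EED-cKO forebrain, with a median log2 change of 0.54, beside 30.2% higher and 16.7% lower over all tested genes. Without EED-cKO replicate 2 or wt E15.5 replicate 2 the counts were 8 and 4, so that the share called higher was near that of all genes, and the share called lower was near it throughout. Tlx3, a factor of dorsal spinal and sensory neurons, was at 7.0 and 6.3 RPKM in EED-cKO forebrain, against 0.1 in both wt libraries (log2 2.80 ± 0.099). Runx3, a factor of proprioceptive neurons, was at 1.7 and 2.0 RPKM in EED-cKO forebrain and listed at 0 in both wt libraries. The 4 called lower were Neurog2 (−2.21 ± 0.099), Neurod1 (−1.46 ± 0.12), Neurog1 and Tac1. Neurog2 and Neurod1 also act in cortical neurogenesis. Prrxl1, a homeobox gene of pain-sensing neurons, was called higher in EED-cKO (0.50 ± 0.14) but at 0.3 and 0.7 RPKM, against 28.0 and 26.5 RPKM in E13.5 spinal cord. In spinal cord 16 of the 23 were called higher and 4 lower than in forebrain, with Tlx3 at log2 5.91 ± 0.099 and Prph at 5.79 ± 0.23. Between the tissues 21.8% of all tested genes were called higher and 23.9% lower. This list shares 5 genes with the sensory neuron markers.

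Retinal genes were higher in EED-cKO forebrain for 13 of 17 tested and lower for 0 (limma), beside 30.2% higher and 16.7% lower over all tested genes. At an unadjusted p under 0.05, 1 gene (Myt1) was lower, and without wt E15.5 replicate 2 limma called 1 lower. Vax2, a ventral eye factor, was at 31.5 and 29.9 RPKM in EED-cKO forebrain and listed at 0 in both wt libraries. Six6, an eye-field factor, was at 25.1 and 22.3 RPKM, against 1.9 and 2.3 RPKM (log2 2.99 ± 0.13). Ebf3 (1.95 ± 0.30) and Isl2 (1.82 ± 0.21) were also higher. Isl1, a partner of Pou4f2 in retinal ganglion cells, was at 45.2 and 36.0 RPKM in EED-cKO and 32.0 and 27.5 RPKM in wt (limma adjusted p = 0.060). Atoh7, which acts upstream of Pou4f2 in retina, was at 0.5 and 0.4 RPKM in EED-cKO and 0.4 and 0.2 RPKM in wt, and was not tested. In spinal cord the list split, with 9 higher and 6 lower of the 17. Of all tested genes 23.9% were called lower and 21.8% higher in spinal cord. Sncg (log2 6.34 ± 0.23) and Isl2 (4.12 ± 0.21) were higher there and Six3 (−4.15 ± 0.097) lower. Otx2, a factor of forebrain and eye, was listed at 0 in both spinal cord libraries, against 22.1 and 23.7 RPKM in forebrain.

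Genes of dorsal neurons and habenula, where Pou4f1 acts, were called higher in EED-cKO forebrain for 11 of 14 tested and lower for 2, with a median log2 change of 1.46. Over all tested genes 30.2% were higher and 16.7% lower, the share called lower being near that of the list. Lmx1b was at 8.6 and 9.2 RPKM in EED-cKO, against 1.7 and 1.1 RPKM in wt (log2 2.06 ± 0.28). Lhx5 (1.82 ± 0.10) and Foxd3 (1.76 ± 0.16) were higher as well. Foxd3 is also among the glial and neural crest markers given above, so its call counts in both lists. With a library left out 9 to 11 were called higher, and the number called lower was 1 without EED-cKO replicate 1 and 3 without wt E15.5 replicate 2. The 2 called lower were Gpr151, a habenular receptor gene (at 0.7 and 0.9 RPKM in EED-cKO, against 1.8 and 1.9 RPKM in wt), and Tac1. In spinal cord 10 of 14 were higher than in forebrain and 2, Lhx9 (−2.72 ± 0.19) and Barhl2 (−0.48), were lower. The shares of all tested genes in that comparison were 21.8% higher and 23.9% lower. For hair cells, where Pou4f3 acts, 7 of 11 genes were tested. In EED-cKO 3 were called higher (Barhl1, Lhx3 and Otof), which fell to 2 or 1 with any library left out, the 1 being without wt E15.5 replicate 2. Over all tested genes 30.2% were called higher, and the median log2 change of the list was 0.05, below the 0.08 of all genes. Lhx3, which is also a pituitary factor, was at 0.8 and 3.4 RPKM in EED-cKO forebrain and listed at 0 in wt E15.5 forebrain; the higher value is from replicate 2, the library with Gh at 42.4 RPKM, and its part in the call was not tested. In spinal cord 4 of the 7 were called higher, where 21.8% of all tested genes were. Atoh1, the hair cell selector, was at 0.4 and 0.5 RPKM in EED-cKO and 0.1 and 0.0 RPKM in wt. In each list a gene silent in wt was tested only where another group was higher. The POU4 lists overlap, so their counts are not separate. Tlx3 and Tac1 stand in the sensory and dorsal neuron lists, and Barhl2 in the retinal and dorsal neuron lists. Barhl1 is in the hair cell and dorsal neuron lists, and Isl1 in the sensory and retinal lists. Gfi1, which was not tested, is in the retinal and hair cell lists.

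**Figure D5:**
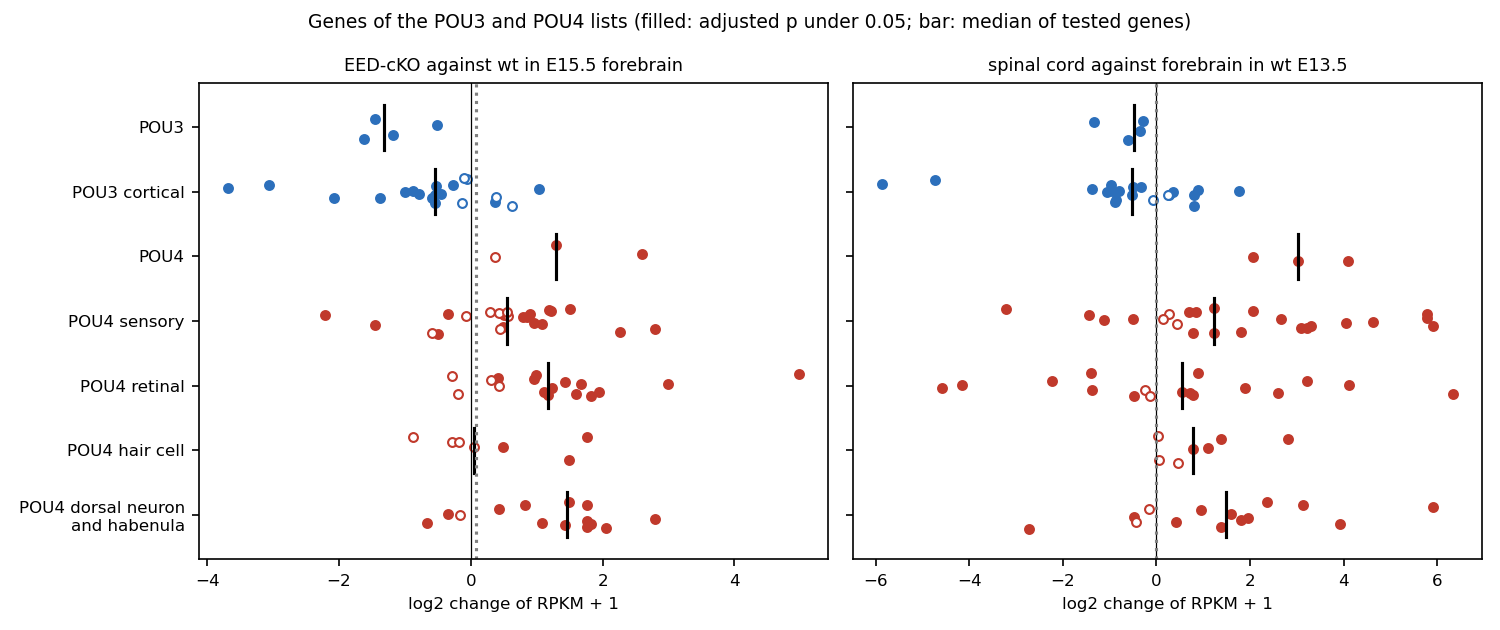
Log2 change of RPKM + 1 (horizontal axis) of each tested gene in the POU3 and POU4 families and in the lists of genes that act with them. Filled points are called, bars are medians over tested genes, and the dotted line is the median of all tested genes. In EED-cKO forebrain the POU3 lists lie mostly below 0 (medians −1.31 and −0.54), and the retinal, dorsal neuron and sensory lists above it (1.18, 1.46 and 0.54), while the hair cell list lies at 0.05, near the median of all genes (0.08).

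Of 8 other POU genes 4 were tested, and in EED-cKO forebrain 1 was called higher and 1 lower, a share near the 46.9% of all tested genes that were called. Pou2f2 was at 12.7 and 13.0 RPKM in EED-cKO forebrain, against 7.7 and 4.6 RPKM in wt (log2 0.99 ± 0.19, limma adjusted p = 0.0048). Pou6f1 was at 25 and 29.9 RPKM in EED-cKO forebrain, against 52.3 and 42.3 RPKM in wt (log2 −0.76 ± 0.12, limma adjusted p = 0.0021). Without wt E15.5 replicate 1, 3 were called higher and 1 lower. Between spinal cord and forebrain limma called 0 of the 4, and 0 had an unadjusted p under 0.05.

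In wt forebrain at E15.5 against E13.5, values depend on the scale of the libraries, and age cannot be told apart from that scale. Of the 7 genes 4 were called (3 higher, 1 lower), where limma called 77.1% of all tested genes, 62.5% higher and 14.5% lower. The median log2 change of all tested genes was 0.52. Calls numbered 10646 higher and 2471 lower as deposited, 6214 and 5869 after median ratio scaling, 5979 and 6049 after quantile normalization, and 4127 and 8541 with equal sums of RPKM. Changes are therefore given relative to the median of all genes.

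Pou3f1 was at 34.2 and 35.5 RPKM at E15.5, against 17.0 and 18 RPKM at E13.5, a log2 change 0.44 above that median. It was called as deposited (limma adjusted p = 1.7e-05), but with equal sums of RPKM, which put the median of all genes at −0.29, its log2 change was −0.03 (adjusted p = 0.727). Pou3f2 lay at 0.11 and Pou4f1 at 0.27 relative to the median. Both were called higher as deposited, but Pou3f2 was not called under any of the 3 other scalings, and Pou4f1 not after quantile normalization or with equal sums. The groups were apart for these 3 genes, where 68.2% of all genes were apart and higher.

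Pou3f3 was at 105.5 and 95.3 RPKM at E15.5, against 107.1 and 105.0 RPKM at E13.5, and lay at −0.60 relative to the median. Its groups overlapped, and it was not called as deposited (limma adjusted p = 0.353), but was called lower under all 3 other scalings. Pou3f4 was at 12.2 and 11.9 RPKM at E15.5, against 14.1 and 13.9 RPKM at E13.5, at −0.72 relative to the median; 17.8% of all genes were apart and lower. Its call (limma adjusted p = 0.038) was lost without either E13.5 forebrain library, either spinal cord library or E15.5 replicate 2, at adjusted p from 0.051 to 0.124, and with the replicate block (0.056). Pou4f2 was at 0.5 and 0.0 RPKM at E15.5 and listed at 0 at E13.5. It was not called (limma adjusted p = 0.167), but was called without E15.5 replicate 2 (0.0018).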

How the data were processed

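Single-end 50-base unstranded RNA-seq was made from 8 libraries, per the labels' protocols. The authors deposited RPKM values rounded to 0.1, with no counts. The builds mm9 and GRCm38 stand in the submitters' processing notes, with no role given, and the aligner and counter are not given in the sources used here. The E15.5 columns were matched to gene names sorted alphabetically with case and hyphens ignored. This raised r between wt forebrain at E15.5 and E13.5 across all 36333 rows from 0.760 to 0.948. The POU genes keep their row in either order, but many list genes (Neurog2, Neurod1, Nes, Sox2, the Hox genes) do not. For 9 symbols listed more than once, the row of highest mean entered.

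log2(RPKM + 1) was fitted in limma 3.58.1 (R 4.3.3; eBayes with trend, two-sided) with 4 group means, 8 libraries and 4 residual degrees of freedom. A change is given as log2 with its standard error. Nothing says that replicates came from separate embryos, so p-values measure the spread between these samples. The members, lists and rules were chosen with earlier results of these data known. Named genes were all 7 POU genes, up to 4 called genes per list and comparison with the largest changes, those called against the majority, genes that bear on a marker check, and for each member the 3 genes of highest Pearson r among those reaching 5 RPKM with a standard symbol. Some list genes that the rule names enter the counts, medians and sums but are not reported here. Cux1, Isl1 and Emx1 were named after their values were seen. Markers of anterior pituitary and genes at the POU loci were added after the data were seen. The fit was tested on simulated data. Figures were drawn with matplotlib 3.10.9.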

Additional observations from a re-analysis of the deposited data

How the results depend on the processing

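In the knockout comparison the 6 POU calls held, with the same direction, under all 20 alternatives (limma). These were 2 other row orders, a pseudocount of 0.1, 2 other filters, 3 scalings, no trend and a replicate block. The rest were the 4 compared libraries alone, same-row genes alone, and each of 8 libraries left out. The direction could change only under the pseudocount, the scalings or the loss of an E15.5 library. All other alternatives keep the log2 change of the POU genes, and can alter only its error and adjusted p. The total count of called genes fell to 4777 with the 4 compared libraries and ranged from 4922 to 9606 with 1 library left out, the lowest without EED-cKO replicate 2. With same-row genes alone, where fewer genes are tested, it was 4929, 4792 between the tissues and 7209 between the ages. Between the tissues 4 to 7 POU genes were called with 1 library left out, and Pou3f2 was not called without a filter (adjusted p = 0.055). Between the ages 2 POU genes were called with equal sums of RPKM, chosen after seeing the data. There the log2 changes of Pou3f1 (−0.033) and Pou3f2 (−0.36) reversed. That scaling moves all genes by construction, and the median of all genes was −0.29 under it, against 0.52 as deposited. With the replicate block 6, 7 and 3 POU genes were called in the knockout, tissue and age comparisons. Nothing in the labels pairs equal replicate numbers, and same-numbered deviations correlated with r = −0.124, 0.211 and 0.048. Depth is unknown, and Pou4f3 in forebrain lies near the rounding of 0.1 RPKM.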

Other observations

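Pou1f1, the pituitary POU factor that activates growth hormone, prolactin and thyrotropin genes, was at 4.6 RPKM in EED-cKO replicate 2 and listed at 0 in the other 7 libraries. In that library Gh was at 42.4 RPKM, Cga at 25.6, Tshb at 20.3 and Prl at 2.6, and each was at or under 0.1 RPKM in EED-cKO replicate 1. Pomc was at 103.6 RPKM in EED-cKO replicate 2 and 9.0 in replicate 1, against 5.6 and 7.4 RPKM in wt E15.5 forebrain. Pitx1, which acts upstream in the pituitary, reached 7.9 and 11.4 RPKM in EED-cKO forebrain and was listed at 0 in wt forebrain of that age. The POU3 and POU4 calls were the same without EED-cKO replicate 2.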
